A study of Homo sapiens with 3 samples.

Results

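The 38 genes described here encode the kinases of the mitogen-activated protein (MAP) kinase cascades. They were taken by name, as genes called MAP4K, MAP3K, MAP2K or MAPK with a number, from the 22395 genes that the arrays measured through a probe set naming 1 gene. By tier, 3 were MAP4K genes, 18 MAP3K, 6 MAP2K and 11 MAPK. They were read by 40 probe sets, since MAP3K8 and MAPK12 had 2 each, and the brighter one on average stood for its gene. MAPK14, MAP2K7, MAP4K2 and MAP4K3 were not analysed here.

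The cells were HEK293T, a widely used cell line from human embryonic kidney in which SV40 large T antigen is present. All were growing asynchronously, had received a pCDF1 lentivirus and were kept under puromycin to select stable carriers. The vector was empty in one culture, held wild-type TRAF7 in another and TRAF7 G536S in the third, and each group had 1 array of total RNA. The labels do not say whether a culture was a clone or a pool. TRAF7 is an E3 ubiquitin ligase that binds the MAP3K MEKK3. Because no group had a replicate, no test between groups could be made, and every difference below is one array minus another on the log2 scale. A difference between cultures, extractions or arrays cannot be told apart from one between constructs. In these bulk samples, fewer cells with a transcript and less RNA per cell cannot be told apart either.

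A MAP kinase cascade passes a signal by serial phosphorylation. A MAP4K or another upstream signal activates a MAP3K, which phosphorylates a MAP2K, which in turn phosphorylates a MAPK on a threonine and a tyrosine of its activation loop. The arms are named for the last kinase: the classical ERK arm for growth factor signals, JNK and p38 for stress and cytokines, and ERK5 (MAPK7), reached through MEKK2 or MEKK3 (MAP3K2, MAP3K3) and MEK5 (MAP2K5). These cascades are controlled mainly by phosphorylation, which an RNA array does not measure.

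TRAF7 itself read 5.66 in cells that had the vector alone, against 8.11 for wild type and 7.35 for G536S. Both construct arrays were thus above the empty vector array, by 2.46 and 1.70, and G536S differed from wild type by -0.76. Medians over all 53617 probe sets were 1.04, 1.02 and 1.01 in the same order. The 75th percentile was 1.73 with the empty vector against 1.85 and 1.86, so the brighter probe sets of the empty vector array read lower. Among the 11198 genes at or above the median gene mean (1.21), the median difference from the empty vector was 0.08 for wild type and 0.10 for G536S, and quantile normalization shifted these by -0.10 and -0.12. Of 8 HEK293 markers measured, 6 had a mean at or above that level, among them the neurofilament NEFL, VIM and EYA1, while KRT8 and NEFM lay below it. Of the 3 leukocyte and 3 endothelial markers, none reached that level. COL1A1 was the 1 fibroblast marker of 4, and LRP2 the 1 mature kidney marker of 6, that did.

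Differences among the cascade kinases were small to moderate. All 3 values lay within 0.2 of each other for 14 of the 38, a share that was not counted over all genes. No kinase was 2-fold apart in any comparison, where 0.478%, 0.598% and 0.268% of all genes were, for wild type and G536S each against the empty vector and for G536S against wild type. At such shares the lack of a 2-fold difference among 38 genes is no result about the kinases. A difference of at least 1.5-fold (0.58 on the log2 scale) was used to call a gene higher or lower. By this rule MAP3K15 and MAP2K5 were higher with wild-type TRAF7 than with the empty vector, and MAP2K5 was lower with G536S than with wild type. No other kinase was called in any comparison.

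For wild type against the empty vector, 2 of 38 kinases were called higher and 0 lower. Of all genes measured, 2.73% were called higher and 0.911% lower. Differences this wide were commoner among genes at or above the median level, where 30 of the 38 kinases and both of those called lay, with 5.42% higher and 1.79% lower. The kinases' share is thus near that of other genes and is not a result about the cascade. The median difference of the 38 was 0.07, with 24 above 0, against 0.00 for all genes and 0.08 for genes at or above the median level. Of all genes 49.8% were above 0, and of those at or above the median level 62.6%. After quantile normalization the kinases' median was 0.015 and by cyclic loess 0.023, with 21 of the 38 above 0 in each. Genes at or above the median level then had medians of -0.022 and -0.006, with 46.7% and 49.0% above 0. The calls over all genes were then near balance, with 1.59% higher and 1.73% lower by quantile normalization and 1.66% and 1.56% by cyclic loess. The median size of the difference, whatever its sign, was 0.16 for the kinases and 0.19 for genes at or above the median level.

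For G536S against the empty vector, 0 of 38 kinases were called in either direction, where 3.05% of all genes were higher and 1.07% lower, and 6.07% and 2.08% of those at or above the median level. Over all genes this balance turned to 1.59% higher and 2.25% lower by quantile normalization, and to 1.75% and 1.996% by cyclic loess. The median difference was 0.06, with 24 of 38 above 0, and after quantile normalization -0.01, with 19 above 0. On the deposited values it was 0.00 for all genes and 0.10 for those at or above the median level, of which 48.7% and 63.9% were above 0. After quantile normalization the genes at or above the median level had a median of -0.03, with 45.9% above 0. For the kinases on the deposited values, the range was as follows. The values ran from -0.39 (MAP3K4) to 0.49 (MAP3K15). Between the constructs, with wild type as the base, 1 of 38 was lower and 0 higher, where 0.929% of all genes were lower and 1.11% higher, and 1.81% and 2.17% of those at or above the median level. That median was 0.01, with 19 above 0, and the values ran from -0.60 (MAP2K5) to 0.50 (MAP2K4). Because the comparisons share arrays (the first 2 the empty vector, the last 1 with each), their values are not independent.

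**Figure D1:**
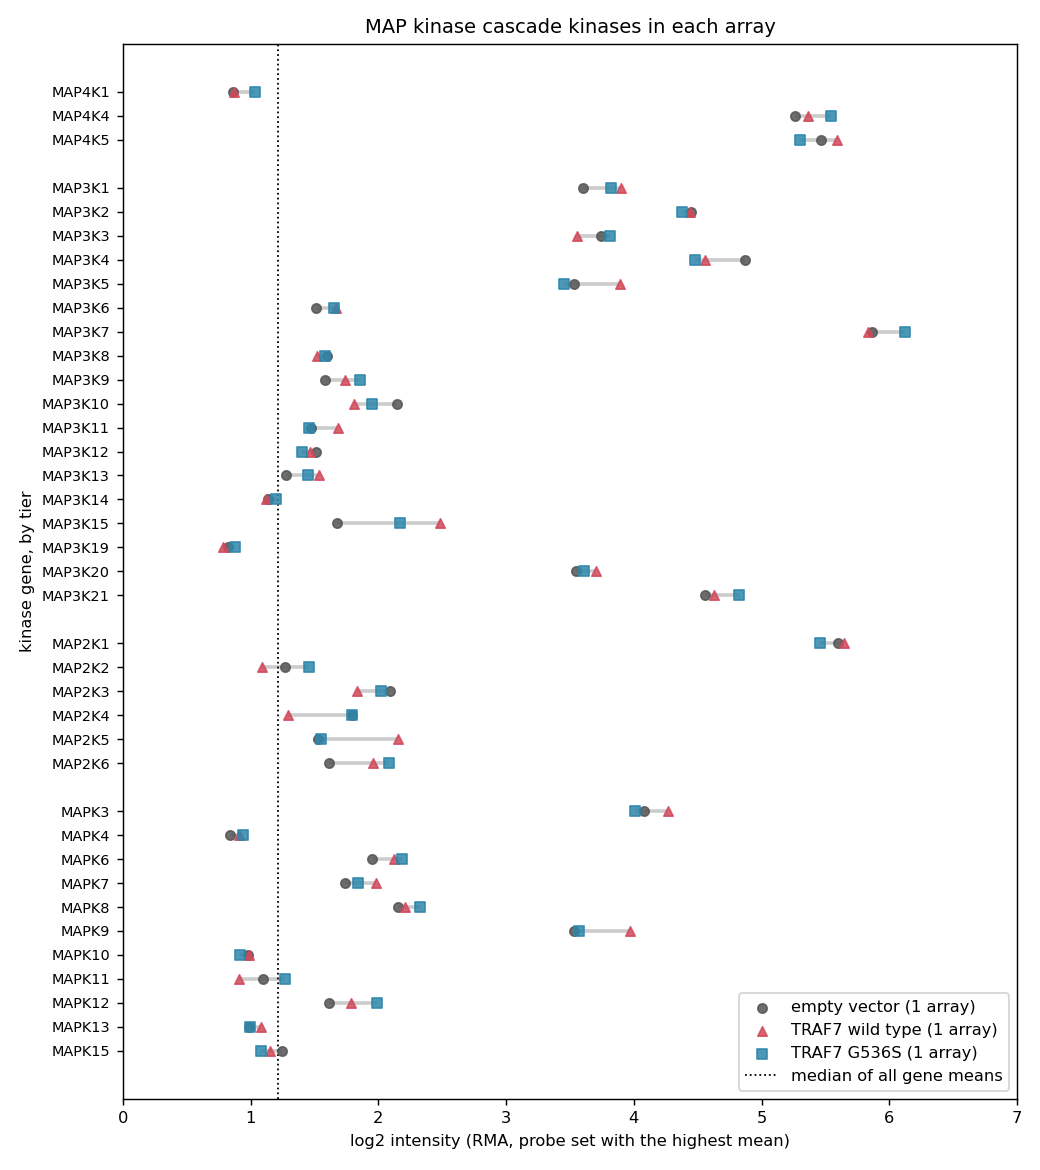
Log2 intensity (x axis) of each of the 38 kinases (y axis, grouped by tier) in the empty vector array (circle), the wild-type array (triangle) and the G536S array (square), 1 array each, joined by a grey line. For 14 kinases the symbols lie within 0.2 of each other, while MAP3K15 and MAP2K5 show the widest spread, from 1.68 to 2.48 and from 1.52 to 2.16, and the dotted line marks the median of all gene means (1.21).

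The branch from MEKK2 and MEKK3 to ERK5 was read through all 4 of its kinases. MAP3K3, which encodes MEKK3, read 3.74 (empty vector), 3.55 (wild type) and 3.81 (G536S), and sets of 3 values keep this order from here on. MAP3K2, which encodes the closely related MEKK2, read 4.44, 4.44 and 4.38. On the deposited values the widest difference was 0.26 for MAP3K3, between the constructs, and 0.07 in size for MAP3K2. Quantile normalization moved the wild-type difference of MAP3K3 from -0.19 to -0.33 and turned its G536S difference from 0.07 to -0.08, both against the empty vector.

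MAP2K5 encodes MEK5, the kinase that phosphorylates ERK5. It read 1.52, 2.16 and 1.55. The wild-type array stood alone: it was 1.55-fold above the empty vector (0.63) and 1.52-fold above G536S, which differed from it by -0.60, while the other 2 arrays were 0.03 apart (-0.06 after quantile normalization). Against the empty vector, MAP2K5 fell short of the 1.5-fold line after quantile normalization (0.53) and cyclic loess (0.55). Against G536S it stayed past the line on the deposited values and under quantile normalization, cyclic loess and median centring, from -0.61 to -0.59. Averaging probe sets and the floor could not change it, as it has 1 probe set and values above the floor. Both of its calls rest on the single wild-type array and on 1 probe set.

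MAPK7 encodes ERK5, which carries a transactivation domain behind its kinase domain. It read 1.74, 1.98 and 1.84, with wild type highest and the empty vector lowest, and differed from the empty vector by 0.24 with wild type and 0.10 with G536S, the latter turning to -0.03 after quantile normalization. Over the 4 kinases of the branch, the median difference from the empty vector was 0.12 for wild type and 0.05 for G536S. After quantile normalization the wild-type median stayed above 0 (0.01), while the G536S median was -0.07, with 0 of the 4 above 0 where 3 had been, so the sign of the latter depended on the scaling. Between the constructs the median was -0.10, and 3 of 4 kinases were below 0 under each of the 4 scalings.

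The starts of the 4 branch genes are shown because MAP2K5 was the one that stood apart, and their sequences let its start be set beside those of its partners. Each line gives the 250 bases before the most upstream start that RefSeq (GRCh38.p14) lists for the gene, in the direction of transcription. Capitals mark GC boxes (GGGCGG) and CCAAT boxes (CCAAT), on either strand, so ATTGG is a CCAAT box and CCGCCC a GC box of the opposite strand. The MAP2K5 window is at chr15:67542453-67542702 (plus strand), MAPK7 at chr17:19377500-19377749 (plus), MAP3K3 at chr17:63622167-63622416 (plus) and MAP3K2 at chr2:127388466-127388715 (minus).
MAP2K5: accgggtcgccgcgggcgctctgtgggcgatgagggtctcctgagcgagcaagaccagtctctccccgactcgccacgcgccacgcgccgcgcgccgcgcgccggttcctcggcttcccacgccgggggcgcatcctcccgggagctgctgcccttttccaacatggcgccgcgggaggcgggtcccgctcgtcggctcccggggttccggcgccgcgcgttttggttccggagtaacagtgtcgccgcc
MAPK7: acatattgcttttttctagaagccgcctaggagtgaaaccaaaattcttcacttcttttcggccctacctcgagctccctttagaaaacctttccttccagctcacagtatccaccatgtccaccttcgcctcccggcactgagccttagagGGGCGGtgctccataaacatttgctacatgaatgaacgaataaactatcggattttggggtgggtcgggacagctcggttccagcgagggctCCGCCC
MAP3K3: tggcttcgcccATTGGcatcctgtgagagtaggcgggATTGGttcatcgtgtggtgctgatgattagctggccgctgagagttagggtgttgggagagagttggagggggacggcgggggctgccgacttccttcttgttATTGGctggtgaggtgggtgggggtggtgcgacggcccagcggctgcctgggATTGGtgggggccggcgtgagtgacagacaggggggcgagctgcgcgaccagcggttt
MAP3K2: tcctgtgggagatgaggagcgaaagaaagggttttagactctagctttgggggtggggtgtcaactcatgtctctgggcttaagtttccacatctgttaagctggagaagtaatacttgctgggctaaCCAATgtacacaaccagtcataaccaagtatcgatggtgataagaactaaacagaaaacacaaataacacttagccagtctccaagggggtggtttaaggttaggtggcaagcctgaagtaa

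The 4 windows were unlike each other in base composition. GC content was 74.4% for MAP2K5, 64.0% for MAP3K3, 51.2% for MAPK7 and 44.8% for MAP3K2, against a median of 57.6% over the windows of 27305 genes. MAP3K3 held 4 CCAAT boxes, MAP3K2 held 1, MAPK7 held 2 GC boxes, and neither motif was in the MAP2K5 window. The AP-1 motif TGANTCA was searched on both strands as well. So were the CRE motif TGACGTCA, the TATA box spelled as TATAAA, and the MEF2 and CArG motifs. None of them was in these 4 windows.

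Windows were listed for 35 of the 38 kinases, and the most upstream listed window of each was used. Those of MAPK10, MAPK6, MAP4K5, MAP3K12, MAPK4 and MAP3K20 lie inside the gene's full span. For these genes the letters are therefore not those before its outermost start. A GC box was present in 27 of the 35 (77.1%), against 42.2% of all windows, and the median GC content of the 35 was 72.8%. A CCAAT box was in 7 of the 35, against 33.0% of all. AP-1 motifs were in the windows of MAP2K3 and MAPK10, 2 of 35 against 6.57% of all, and a CRE was in that of MAP3K13, against 1.75%. TATA, MEF2 and CArG motifs were in 0 of the 35, against 11.2%, 2.90% and 1.15% of all windows. A match to the MEF2 motif can itself contain a TATA box. These matches describe letters in the windows, and their relation to the measured levels was not tested.

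The MAP4K tier was read through 3 genes. MAP4K4, for HGK, a kinase of the JNK pathway and of cell migration, read 5.26, 5.36 and 5.54. MAP4K5 read 5.47, 5.59 and 5.30, with wild type highest and G536S lowest. MAP4K1, for HPK1, a kinase of blood cells, read 0.87, 0.87 and 1.03, below the median of gene means. The widest of the 9 differences in this tier was -0.28, for MAP4K5 between the constructs.

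The MAP3K tier held the largest single difference. MAP3K15 encodes ASK3, a member of the apoptosis signal-regulating kinases, which act on JNK and p38 under stress. It read 1.68, 2.48 and 2.17. Both construct arrays were above the empty vector, by 0.81 (1.75-fold) and 0.49 (1.40-fold), and G536S differed from wild type by -0.32. The call for wild type held on the deposited values and under quantile normalization, cyclic loess and median centring, with values from 0.68 to 0.81. Averaging probe sets and the floor could not change this gene either. G536S against the empty vector stayed below 1.5-fold in each, from 0.35 to 0.49.

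The other ASK genes were read as well. MAP3K5, for ASK1, read 3.53, 3.89 and 3.46, with a difference of 0.36 for wild type, -0.07 for G536S and -0.44 between the constructs. MAP3K6, for ASK2, read 1.51, 1.67 and 1.65. All 3 ASK genes were thus above the empty vector with wild type and below wild type with G536S, under each of the 4 scalings run. MAP3K6 was below wild type by a difference of only -0.02. Of genes at or above the median level, 62.6% were above the empty vector with wild type, and 51.4% above wild type with G536S. With 3 genes, the shared direction was not tested. The ASK median was 0.36 for wild type, 0.14 for G536S, and -0.32 between the constructs, and those against the empty vector shrank to 0.23 and 0.055 by quantile normalization.

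Of the MEKK genes besides MAP3K2 and MAP3K3, MAP3K4, for MEKK4, a kinase that GADD45 proteins bind, was highest in the empty vector array. It read 4.87, 4.56 and 4.48, and its difference of -0.39 was the lowest of all 38 kinases for G536S against the empty vector. MAP3K1, for MEKK1, read 3.60, 3.90 and 3.82, on the other side by 0.30 and 0.22. The 4 MEKK genes had medians of -0.10 and 0.00 against the empty vector, and -0.22 and -0.14 after quantile normalization.

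MAP3K7 encodes TAK1, the kinase that links TNF, interleukin-1 and TGF-beta receptors to NF-kB, JNK and p38. It read 5.86, 5.83 and 6.12, so that G536S was 0.26 above the empty vector and 0.29 above wild type, the latter the highest of the MAP3K tier in that comparison. MAP3K8, for TPL2, which activates MEK1 downstream of toll-like receptors, read 1.60, 1.52 and 1.58 on one probe set and 1.10, 1.13 and 1.20 on its second. The signs of its 2 probe sets differed against the empty vector, where all 4 differences were at most 0.10 in size.

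The mixed-lineage kinases act mainly on JNK. MAP3K10, for MLK2, read 2.15, 1.81 and 1.95, and its difference of -0.33 was the lowest of the MAP3K tier for wild type. The other 4 genes of the mixed-lineage and dual leucine zipper set (MAP3K9, MAP3K11, MAP3K12 and MAP3K13) lay between -0.04 and 0.26 for wild type and between -0.11 and 0.27 for G536S. MAP3K20 (ZAK, a sensor of stalled ribosomes) read 3.55, 3.71 and 3.61, and MAP3K21 (MLK4) read 4.55, 4.63 and 4.82. MAP3K14, for NIK of the noncanonical NF-kB pathway, read 1.14, 1.12 and 1.20, and MAP3K19 read 0.82, 0.78 and 0.88, both below the median of gene means. The median of the 18 MAP3Ks was 0.04 with wild type and 0.06 with G536S relative to the empty vector, and -0.04 between the constructs, so the tier as a whole did not stand off from all genes (0.00 in each). After quantile normalization the first 2 were 0.00 and -0.01.

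The MAP2K tier held the widest differences of any tier in the direct comparison of the constructs. MAP2K4 encodes MKK4, which phosphorylates JNK and p38. It read 1.79, 1.29 and 1.79, so that the wild-type array was the low one, the reverse of MAP2K5. With wild type it differed from the empty vector by -0.50, with G536S by 0.00, and G536S was 0.50 above wild type. The first of these was past the 1.5-fold line once quantile normalized (-0.59).

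MAP2K6, which encodes MKK6, an activator of p38, read 1.62, 1.96 and 2.08, with both construct arrays above the empty vector by 0.34 and 0.47. MAP2K3, for MKK3, the other main activator of p38, read 2.09, 1.83 and 2.02, with wild type lowest (-0.26). The 2 p38 activators thus had opposite signs against the empty vector, though each stayed below 1.5-fold. MAP2K1, for MEK1 of the classical ERK arm, read 5.60, 5.64 and 5.46, a spread of 0.18. MAP2K2, for MEK2, read 1.27, 1.09 and 1.46, of which the wild-type value lay below the median of gene means. The median of the 6 MAP2Ks was -0.07 for wild type and 0.01 for G536S, each against the empty vector, and 0.16 for G536S against wild type, where 4 of 6 were above 0. The G536S median against the empty vector became -0.09 after quantile normalization.

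**Figure D2:**
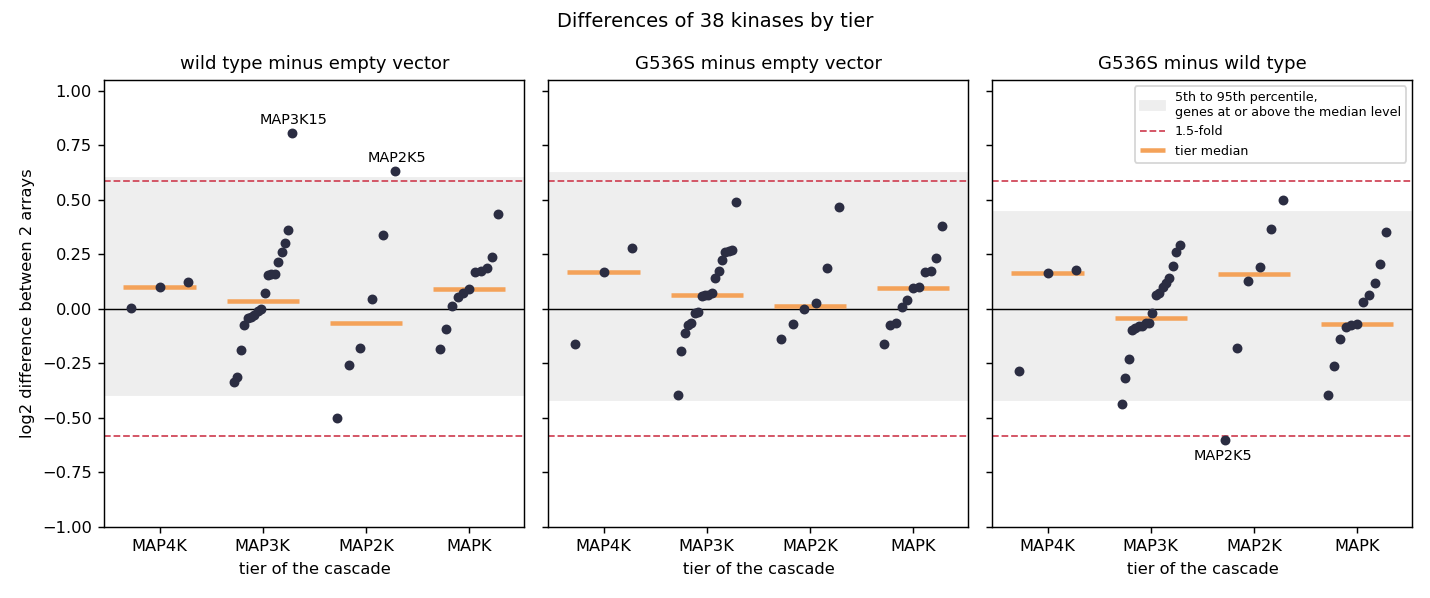
Log2 difference between 2 arrays (y axis) for each kinase (points) by tier (x axis) in the 3 comparisons, with the tier median (orange), the 1.5-fold lines (dashed) and the 5th to 95th percentile of the 11198 genes at or above the median level (grey). MAP3K15 (0.81) and MAP2K5 (0.63) pass the upper line for wild type against the empty vector, MAP2K5 (-0.60) passes the lower line for G536S against wild type, and no point passes a line for G536S against the empty vector.

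At the level of the MAP kinases, none of 11 was called, which at the shares of all genes given above is no result about the tier. For the classical ERK arm, MAPK3, which encodes ERK1, read 4.08, 4.27 and 4.01, with wild type above both others by 0.19 and 0.26. With MAP2K1 and MAP2K2 this arm had 3 kinases measured, and its median against the empty vector was 0.04 for wild type and -0.07 for G536S. The first of these was -0.06 by quantile normalization and -0.07 by cyclic loess, so its sign depended on the scaling.

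The JNK genes had no common direction. MAPK9, for JNK2, read 3.53, 3.97 and 3.57, so the wild-type array was 0.43 above the empty vector and G536S was 0.39 below wild type. MAPK8, for JNK1, read 2.15, 2.21 and 2.33. MAPK10, for the neuronal form JNK3, read 0.98, 0.99 and 0.92, below the median of gene means in all 3 arrays. MAPK9 and MAP2K4 are joined in one cascade, and in the wild-type array they stood on opposite sides of the other arrays. Neither difference reached 1.5-fold except that of MAP2K4 after quantile normalization.

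Of the p38 genes, MAPK12, for p38 gamma, had the widest difference from the empty vector. It read 1.61, 1.79 and 1.99, and its G536S difference was 0.38 on this probe set and 0.57 on its second, which read 0.93, 1.11 and 1.502. Another probe set, which names MAPK12 together with HDAC10, read 1.54, 1.38 and 1.42, with a G536S difference of -0.12. The probe sets that name MAPK12 alone therefore had the same sign, and the shared one did not. MAPK11, for p38 beta, read 1.10, 0.91 and 1.27, so that G536S was 0.35 above wild type. MAPK13, for p38 delta, read 0.99, 1.08 and 1.00. Both MAPK11 and MAPK13 had means below the median of gene means. With MAP2K3 and MAP2K6, 5 genes of the p38 arm were measured, MAPK14 not among them. Their median was 0.17 for G536S against the empty vector and 0.19 against wild type, with 4 of 5 above 0 in each. The 0.17 is the value of MAPK11. The median against the empty vector was 0.17 after quantile normalization as well, and after median centring 3 of 5 were above 0.

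The atypical MAP kinases lack the usual MAP2K step. MAPK6, for ERK3, read 1.95, 2.12 and 2.19. MAPK4, for ERK4, read 0.84, 0.91 and 0.94, and MAPK15, for ERK7, read 1.24, 1.15 and 1.08. Both MAPK4 and MAPK15 had means below the median of gene means. Of the 11 MAPK genes, 9 were above the empty vector with wild type and 8 with G536S, with medians of 0.09 and 0.10. These counts were 8 and 6 after quantile normalization, and the medians 0.05 and 0.01. On the deposited values 49.8% of all genes were above the empty vector with wild type and 48.7% with G536S. Among genes at or above the median level these shares were 62.6% and 63.9%, and after quantile normalization 46.7% and 45.9%.

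**Figure D3:**
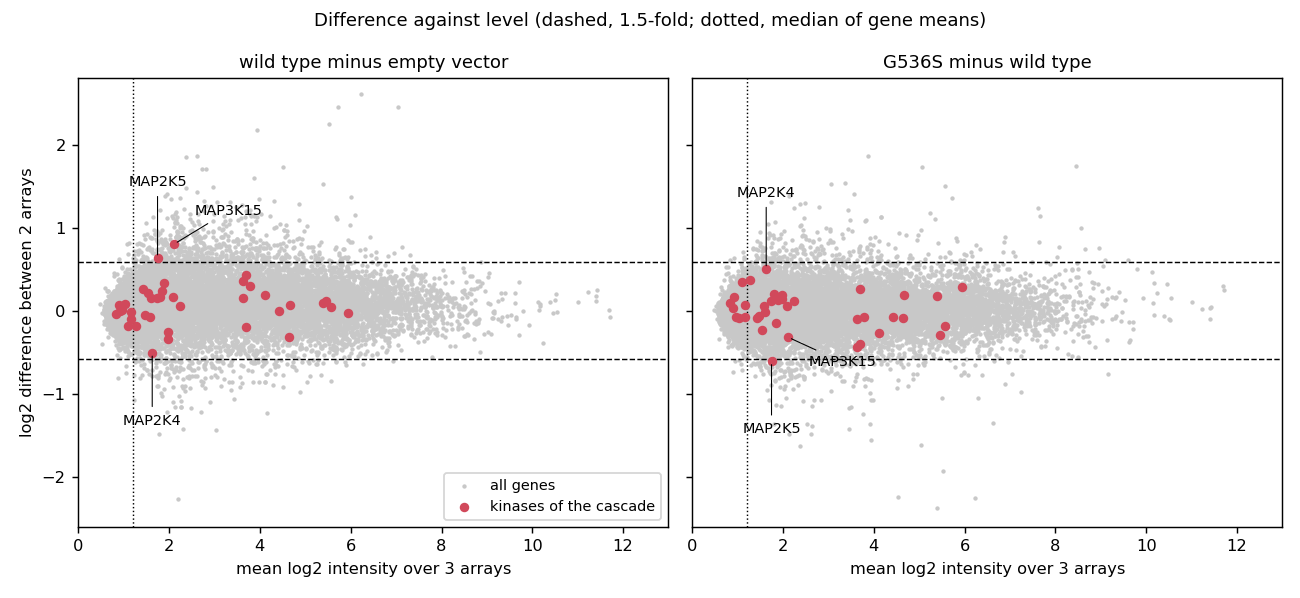
Log2 difference between 2 arrays (y axis) against the mean log2 intensity over the 3 arrays (x axis) for all 22395 genes (grey) and the 38 kinases (red), for wild type minus empty vector and for G536S minus wild type. The spread of all genes opens to the right of the dotted line (median of gene means, 1.21), and MAP2K5, MAP3K15 and MAP2K4 lie just to its right, at means of 1.74, 2.11 and 1.63.

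The other genes of the pathways were read from 5 lists, of which 66 of 74 entries were analysed. Kinases of the same tiers under other names were the closest to the members. Of 9 measured (ARAF, MOS, TAOK1, TAOK2, TAOK3, TNIK, MINK1, NRK and NLK), 0 were called in any comparison, and the list medians ran from -0.08 to 0.01. The lowest value was that of MINK1, a MAP4K-like kinase, at -0.54 for wild type.

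Of 21 scaffolds and binding partners, 1 was called lower and 0 higher for wild type, 2 higher and 1 lower for G536S, and 1 higher and 2 lower between the constructs. At or above the median level, where 19 of the 21 lay, 5.42% of genes were higher and 1.79% lower for wild type, 6.07% and 2.08% for G536S, and 2.17% and 1.81% between the constructs, so these few calls are no result about the list. MAPK8IP3 (JIP3, a scaffold of JNK and of axonal transport) read 4.37, 3.66 and 3.21, differences of -0.71 and -1.16. MAPK8IP2 (JIP2) read 1.68, 1.56 and 2.43, so the G536S array stood alone, 0.75 above the empty vector and 0.87 above wild type. These 2 JNK scaffolds, named because they were called, thus differed in opposite directions with G536S. SPAG9 and SH3RF1, of the same list, differed little from the empty vector with G536S, by 0.05 and -0.08. LAMTOR2, of the late endosomal complex that anchors MEK1, was 0.65 higher with G536S, a call lost after quantile normalization and cyclic loess (lowest value 0.49).

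GADD45A and GADD45B, stress-induced activators of MEKK4, were the 2 partners lower with G536S than with wild type. GADD45A read 4.16, 4.57 and 3.97, and GADD45B read 2.39, 2.96 and 2.27. In both, wild type was highest and G536S was lowest. Partners of MEKK3 differed less between the constructs, by -0.02 (CCM2), -0.05 (PDCD10) and -0.09 (SQSTM1). For G536S against the empty vector, CCM2 (0.290) and PDCD10 (0.195) differed more in size than GADD45A (-0.189) and GADD45B (-0.121). SQSTM1 (-0.102) differed less there too. CCM2, which binds MEKK3, read 1.18, 1.498 and 1.47. PDCD10, of the same cerebral cavernous malformation complex, read 1.30, 1.55 and 1.499. SQSTM1 (p62), which binds MEKK3 and MEK5 through a PB1 domain, read 3.06, 3.05 and 2.96. The median of all 21 was 0.12 for wild type, 0.02 for G536S and -0.05 between the constructs.

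Of the 11 kinases that MAP kinases activate, all at or above the median level, 1 was called (higher, for wild type), near the 5.42% of genes at that level. RPS6KA6 (RSK4) read 2.11, 2.98 and 2.67, a difference of 0.87 for wild type and 0.56 for G536S. The list medians were 0.12 and 0.21 against the empty vector, and 0.10 between the constructs.

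Among 16 phosphatases that act on MAP kinases, DUSP1, which acts on p38 and JNK in the nucleus, was called in all 3 comparisons, with 5.17, 6.70 and 4.33. In the list 1 gene was higher for wild type, 1 lower for G536S and 2 lower between the constructs, and 9 of the 16 lay at or above the median level, where the shares given for the scaffolds apply. DUSP8, a phosphatase of JNK and p38, read 1.78, 2.24 and 1.59 and was lower with G536S than with wild type by -0.65. The list medians were 0.01, -0.10 and -0.04 in the order wild type, G536S and between constructs, while most of the list was not called. Of 9 ERK5 substrates and targets, JUN (4.66, 6.91 and 4.98) and FOSL1 (1.38, 2.29 and 1.62) were higher with wild type than in both other arrays. They were the 2 called in this list, of which 7 lay at or above the median level. At that level 5.42% of genes were higher for wild type and 1.81% lower between the constructs. The list is short, and its count was not tested. The MEF2 factors, which ERK5 phosphorylates, and KLF2 and KLF4, whose transcription it raises in endothelium, were not called. MEF2D read 5.02, 4.97 and 4.99, MEF2A read 2.81, 2.95 and 3.14, KLF2 read 1.81, 1.66 and 1.70, and KLF4 read 0.93, 1.19 and 1.09. JUN and FOSL1 are also known targets of the classical ERK and JNK arms.

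**Figure D4:**
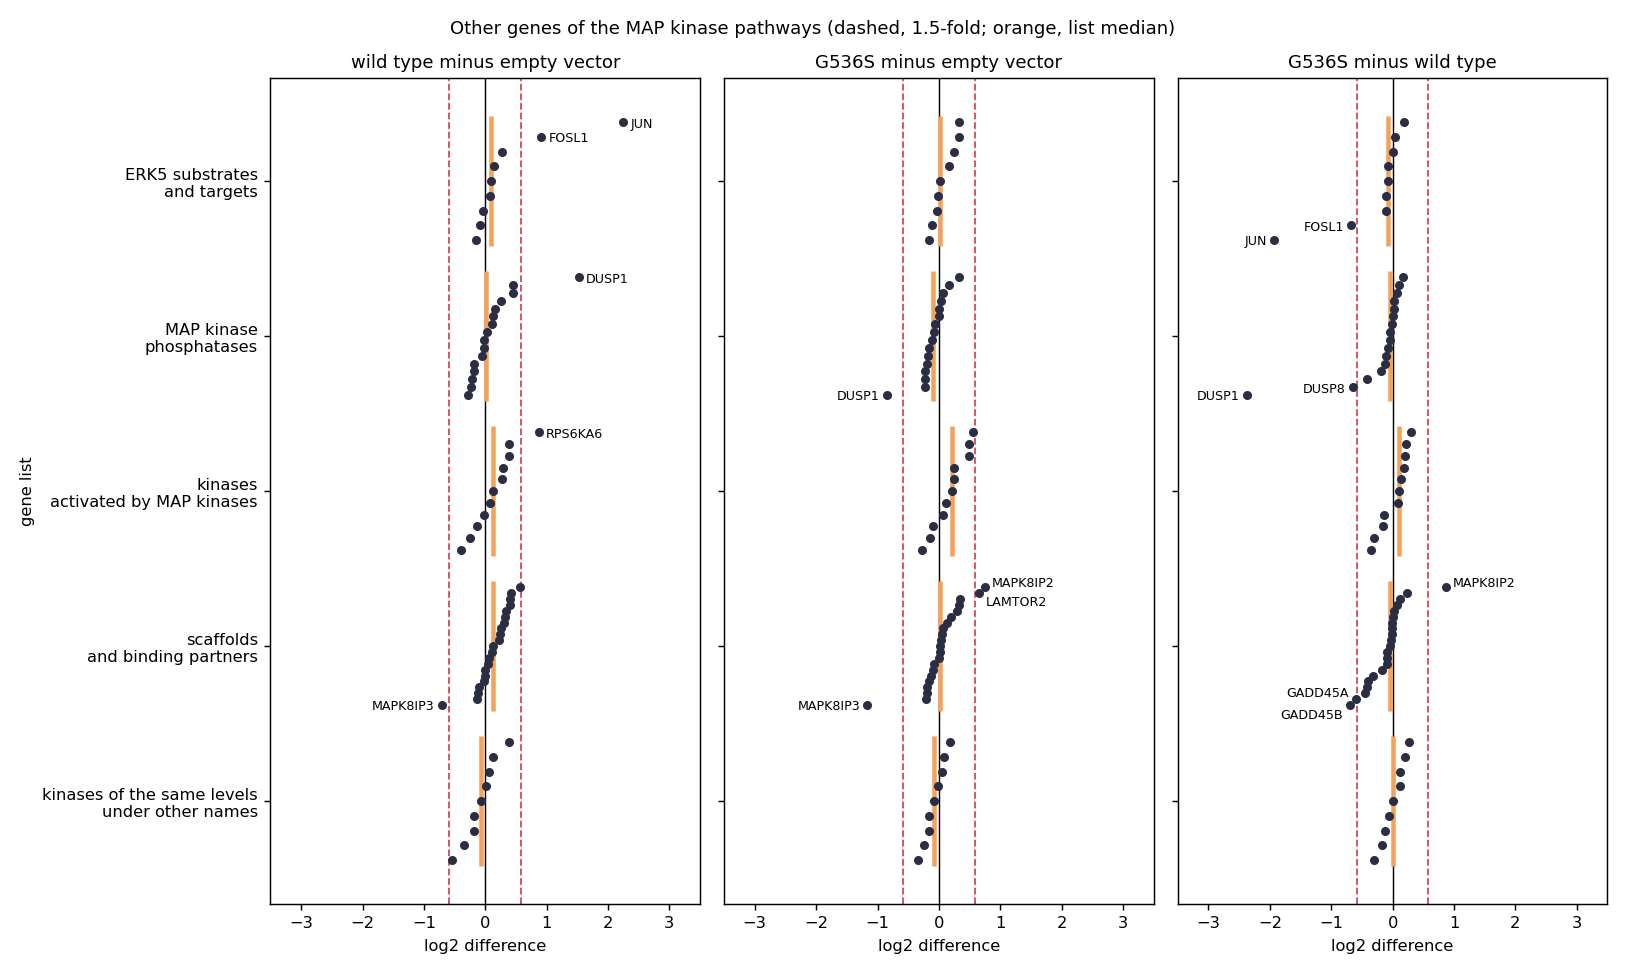
Log2 difference (x axis) of each measured gene (points) in the 5 lists of other pathway genes (y axis) for the 3 comparisons, with list medians (orange), 1.5-fold lines (dashed) and the names of genes past them. The medians lie near 0, from -0.10 to 0.21, and JUN, FOSL1, DUSP1, RPS6KA6 and the JNK scaffolds MAPK8IP2 and MAPK8IP3 lie outside the lines in at least 1 comparison.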

How the data were processed

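One Affymetrix array of total RNA per group was used, 3 in all. Per the submitters' processing notes, the authors made the deposited log2 intensity of each probe set with RMA. For RMA's version and a genome build, nothing was stated in the labels. That the logs are base 2 was inferred: the highest value, 12.57, is above the natural log of the scanner's maximum (11.09).

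The platform annotation lists 25713 of 53617 probe sets, of which 23871 name 1 gene and 1842 several. Symbols were updated through the Entrez ID (22569 matched) in a RefSeq table of GRCh38.p14. Each gene took the probe set with the highest mean, giving 22395 genes, 17029 of them protein-coding. No filter was applied. Levels were placed against the median gene mean: 30 kinases were at or above it and 8 below.

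Differences were taken between arrays, and genes past 1.5-fold and past 2-fold were counted. No test was made, as groups had 1 array. The number of arrays limits the precision. The counting was tested on simulated data.

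The genes named are TRAF7, the ERK5 branch, all MAP2K and MAPK members, MAP3K and MAP4K members 1.5-fold apart or at a tier's extremes, members with 2 probe sets, and pathway-list genes 1.5-fold apart. Other genes were named for context after their values were seen. Members and lists were chosen with earlier results of these data known. Marker lists for the HEK293 line, mature kidney, leukocytes, endothelium and fibroblasts were also read. Python 3.11.15, numpy 2.4.6, pandas 2.3.3, matplotlib 3.10.9, R 4.3.3 and limma 3.58.1 were used.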

Additional observations from a re-analysis of the deposited data

Results flagged for a closer look

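5 genes of the other pathway lists, and none of the 38 kinases, lay on opposite sides of the empty vector with the 2 constructs while the constructs were at least 1.5-fold apart on the deposited values. After quantile normalization and cyclic loess MAP2K5 met both conditions too, at 0.53 and -0.057 (quantile; -0.59 between the constructs) and at 0.55 and -0.065 (loess; -0.61). These differences were not tested. The share of all genes that meet both conditions was not counted, so it cannot be said whether 5 genes, or none of 38, is unusual. DUSP1 was 1.52 above the empty vector with wild type and -0.84 from it with G536S, a difference between the constructs of -2.37. GADD45B (0.57 and -0.12) differed between them by -0.69, DUSP8 (0.46 and -0.19) by -0.65 and GADD45A (0.41 and -0.19) by -0.60. MAPK8IP2 (-0.12 and 0.75) went the other way, by 0.87.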

How the results depend on the processing

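Alternatives were averaging a gene's probe sets, quantile normalization, cyclic loess, centring each array on its median, a floor at the 25th percentile, a filter at the median level, and membership by the RefSeq symbol, which gave the same 38 genes. A median was called moved if it shifted by at least 0.1. A count was called moved if it changed by a ratio above 1.5, or from or to 0. Of the medians and counts recomputed, 6 moved and 141 did not. A median smaller than 0.1 in size could change sign without being called moved. That of the 38 kinases for G536S minus empty vector did so, from 0.06 to -0.01 by quantile normalization. Some medians and counts could not have moved. Averaging changes only MAP3K8 and MAPK12 among the kinases, the floor changes only values below it, and the RefSeq membership changes nothing. The number of kinases 1.5-fold higher with wild type than with the empty vector went from 2 to 1 after quantile normalization and after cyclic loess, which left MAP3K15 and lost MAP2K5, and the number lower went from 0 to 1 after quantile normalization, which added MAP2K4. The G536S minus empty vector median of the MAP2K tier moved from 0.01 to -0.094 after quantile normalization. With the filter, the MAP4K tier kept 2 genes, and its medians were 0.058 for G536S minus empty vector and -0.053 for G536S minus wild type. No single kinase's difference moved, under the settings run for single genes, by more than the spread of all genes' differences. Over 6 settings the sign was kept for 31 of 38 kinases in each comparison with the empty vector and for 38 of 38 between the constructs. No paired analysis was possible because each group had 1 array. 8 of the 38 kinases had means below the median of gene means, where few genes of any kind were 1.5-fold apart.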
